A study of Mus musculus with 2 samples.

Results

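The mitosis and G2/M genes described here are 46 genes whose transcripts accumulate in cells that have replicated their DNA and are entering or completing division. They were taken from a list of symbols, and all 46 were found among the 32286 features of the count matrices. Both libraries were made from caudal tissues pooled from mouse embryos of the C57BL/6J strain, wild type in genotype and of age E8.5 (8.5 days after conception), and they form 1 group with replicates 1 and 2. The tissue was dissociated with TrypLE for 15 min, and single cells at about 1500 cells per µl and over 85% viability were loaded on the 10x Genomics 5′ kit with a target of up to 20000 cells per library. The overall difference between the 2 libraries was removed in the main fits. The p-values for cell types therefore measure only how far differences between types vary from 1 library to the other, pooled over types. Separate embryo pools for each library are not stated in the labels, so this variation may be technical. No treatment or mutant was included, and the comparisons below are therefore between cell types of the same tissue.

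Entry into mitosis is driven by cyclin-dependent kinase 1 (CDK1) bound to a B-type cyclin, and is followed by chromosome condensation, spindle assembly, attachment at kinetochores, destruction of cyclin by the anaphase-promoting complex and cytokinesis. Most of the genes for these steps are repressed in resting cells and early in the cycle by the DREAM complex and switched on late in the cycle by B-MYB and FOXM1, through the CHR element and CCAAT boxes of their promoters. The caudal embryo at this stage holds axial progenitors that feed the neural tube and the paraxial mesoderm and divide fast, whereas the node and notochord are known as slowly dividing tissues.

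The libraries held 30449 and 18245 barcodes with 295866003 and 150964773 unique molecular identifiers (UMIs, each counting 1 captured transcript). Barcodes with at least 2000 UMIs and 0.3% to 10% mitochondrial UMIs were kept, which left 11244 and 8328 with a median of 17872.5 and 13685.5 UMIs. Cell types were assigned by distinct markers, none of which is a member, and 39.1% and 38.9% of the kept barcodes stayed without a type. Types with at least 50 cells in each library were caudal epiblast, presomitic mesoderm, somite, neural tube, lateral plate mesoderm, surface ectoderm, gut endoderm and endothelium. Notochord had 61 and 31 cells, with a median of 14407 and 10716 UMIs, and was added to the comparisons for that reason with a minimum of 25. Scrublet, which marks likely doublets, marked 11.0% and 7.10% of the kept barcodes, and they were retained except where stated. The libraries shared 761 barcode sequences, of which 4 were kept and given the same cell type in both.

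The promoters of the members were searched for the elements named above, and 7 are shown here because their genes recur in the results: Cdk1 (chr10:69352913-69353062, minus strand), Ccnb1 (chr13:100786487-100786636, minus), Top2a (chr11:99024190-99024339, minus), Mki67 (chr7:135716380-135716529, minus), Hmgb2 (chr8:57511693-57511842, plus), Cdc20 (chr4:118437344-118437493, minus) and Ube2c (chr2:164769779-164769928, plus). Each line gives the 150 bases before the annotated start from RefSeq (GRCm38.p6), 5′ to 3′ on the gene's strand, and capitals mark the CHR element TTTGAA and the CCAAT box, read on either strand.
Cdk1: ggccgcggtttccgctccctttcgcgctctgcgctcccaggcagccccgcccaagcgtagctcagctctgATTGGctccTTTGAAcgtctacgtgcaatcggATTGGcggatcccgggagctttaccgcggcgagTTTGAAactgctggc
Ccnb1: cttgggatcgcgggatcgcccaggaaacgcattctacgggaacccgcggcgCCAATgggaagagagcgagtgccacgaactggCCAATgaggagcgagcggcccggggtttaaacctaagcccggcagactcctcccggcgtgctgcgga
Top2a: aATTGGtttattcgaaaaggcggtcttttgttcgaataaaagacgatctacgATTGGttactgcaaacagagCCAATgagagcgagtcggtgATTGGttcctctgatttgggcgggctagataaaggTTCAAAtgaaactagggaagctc
Mki67: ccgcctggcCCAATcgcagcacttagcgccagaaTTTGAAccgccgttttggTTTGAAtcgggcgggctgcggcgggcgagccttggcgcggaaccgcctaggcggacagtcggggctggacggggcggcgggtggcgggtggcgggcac
Hmgb2: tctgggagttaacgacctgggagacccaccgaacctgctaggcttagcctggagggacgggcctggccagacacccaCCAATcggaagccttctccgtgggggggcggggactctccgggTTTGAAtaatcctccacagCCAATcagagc
Cdc20: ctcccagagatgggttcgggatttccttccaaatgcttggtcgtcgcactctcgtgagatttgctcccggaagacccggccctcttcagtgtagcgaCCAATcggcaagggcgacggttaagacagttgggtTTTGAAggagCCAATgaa
Ube2c: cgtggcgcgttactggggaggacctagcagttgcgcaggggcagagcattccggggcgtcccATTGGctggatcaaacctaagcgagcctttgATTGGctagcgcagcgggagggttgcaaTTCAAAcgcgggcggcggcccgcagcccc

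Cdk1 shows a CHR element close to its start and another farther upstream, with 2 CCAAT boxes between and before them. Top2a, Cdc20, Hmgb2 and Ube2c each hold 1 CHR element near the start, and Mki67 holds 2 farther upstream. Ccnb1, the B-type cyclin that activates CDK1, has no CHR match in these letters and 2 CCAAT boxes. Over the 41 members with a RefSeq window of 250 bases before to 50 after the start, 29 (70.7%) held TTTGAA, against 18.1% of all 27025 windows, 14.3% of 35 S phase genes and 56.3% of 48 other G2 and mitosis genes. CCAAT was found in 80.5% of member windows and 37.9% of all windows, and both elements together in 61.0% and 7.12%. GGCGGGAA, a form of the E2F motif known from S phase genes, was in 0 of 41 member windows, 25.7% of the S phase windows and 2.24% of all windows. These are matches of letters on both strands, not sites shown to be bound, and a window without a match lacks only these letters.

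Summed over all 46 members, the genes made up 0.764% to 0.840% of UMIs in the 8 larger cell types of replicate 1 and 0.816% to 0.965% in those of replicate 2. Neural tube stood highest in both libraries, at 0.840% and 0.965% (0.903% ± 0.0883, SD, n = 2), which was 1.08 and 1.14 times the mean of the other 7 types. Notochord stood lowest at 0.562% and 0.632% (0.597% ± 0.0493), or 0.718 and 0.733 times the mean of the 8 other types. The 7 remaining large types lay between 0.764% and 0.789% in replicate 1 and between 0.816% and 0.897% in replicate 2, and these ranges did not overlap between the libraries. Extraembryonic endoderm, counted in replicate 1 alone, was at 0.623%, and primitive blood, counted in replicate 2 alone, at 0.672%. Haemoglobin transcripts took 26.6% of the blood UMIs, and without them the members made up 0.916%. A lower summed share cannot distinguish fewer dividing cells from less of these transcripts per cell.

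**Figure D1:**
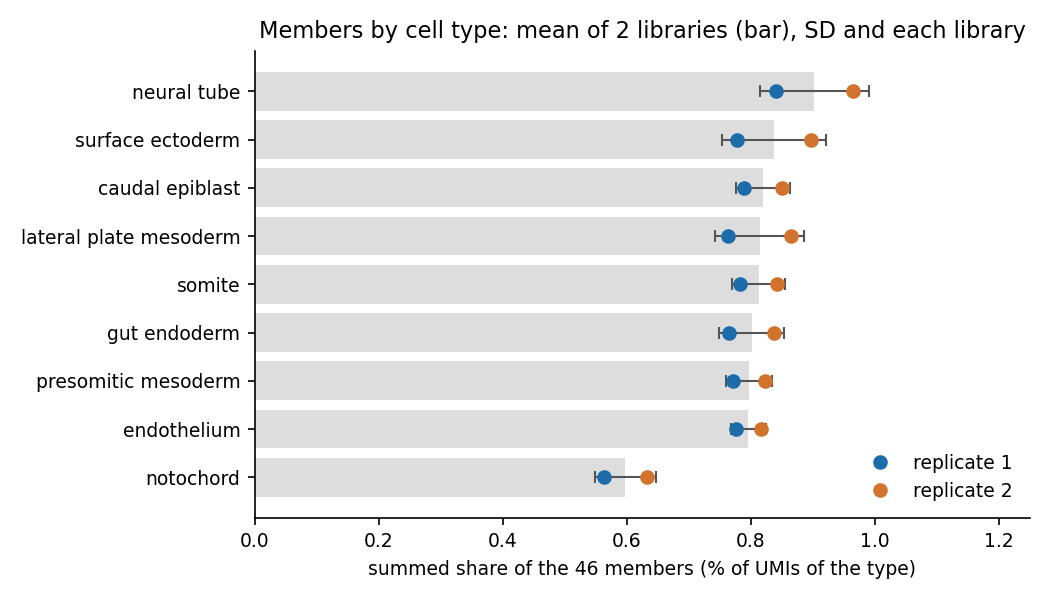
Summed share of the 46 members in each cell type (horizontal axis, percent of the UMIs of the type); bars give the mean of 2 libraries with its SD and points the libraries. Neural tube is highest and notochord lowest in both libraries, and replicate 2 lies above replicate 1 in every type shown.

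Levels of most members spanned a narrow range across the 8 larger types. The ratio of the highest to the lowest type mean had a median of 1.40 over the members and ran from 1.13 for Cenpe, a kinetochore motor, to 2.54 for Psrc1, a microtubule-binding protein. In edgeR's quasi-likelihood test on UMIs summed by type and library, with the library as a block, 35 of 46 members differed among the 8 types at an adjusted p under 0.05, against 73.9% of all 13906 genes tested. The members' share is thus close to that of all genes in this fit. Without the library block 12 of 46 members and 6843 of 13906 genes passed, so there the members passed less often than all genes. The 11 that missed the threshold were Cdc25c, Aurkb, Kif11, Top2a, Ckap2l, Ndc80, Kif2c, Kif20b, Hjurp, Dlgap5 and Cenpe. S phase genes passed in 45 of 48 cases, other G2 and mitosis genes in 38 of 58, and CDK inhibitors and other brakes on the cycle in 15 of 16.

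Among the CDK1 module, 5 of 6 genes differed. Cdk1 itself was at 341 and 294 CPM (counts scaled to a sum of 1000000 UMIs) in endothelium, given here and below as replicate 1 and then replicate 2, and at 206 to 246 and 204 to 231 CPM in the other 7 types (adjusted p = 6.88e-05), so endothelium stood apart in both libraries. Ccnb1 was instead at 167 and 156 CPM in endothelium, the lowest of the 8 types in both libraries, and at 229.6 and 227 CPM in neural tube, the highest in both (adjusted p = 0.00131). The kinase and its cyclin thus had different orders of cell types. Cdc25c, the phosphatase that activates CDK1, missed the threshold (adjusted p = 0.0508).

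Of the mitotic kinases 5 of 6 differed, with Aurkb, the kinase of the chromosomal passenger complex, the exception (adjusted p = 0.0732). Nek2, which separates the centrosomes, ranged from 28.1 to 61.7 CPM in replicate 1 and from 32.9 to 65.2 CPM in replicate 2, with neural tube highest in both (adjusted p = 2.22e-05). Plk1, the polo-like kinase of mitotic entry, ranged from 133 to 172 and from 124 to 176 CPM (adjusted p = 0.000422). Presomitic mesoderm was lowest for Plk1 in both libraries. Both partners of the passenger complex, Birc5 and Cdca8, differed as well.

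Kinetochore genes differed in 3 of 6 cases, namely Cenpf, Cenpa and Nuf2. Cenpf, a large protein of the outer kinetochore, was at 109 and 174 CPM in endothelium, the lowest type in both libraries, and at 196 and 354 CPM in neural tube, the highest in both (adjusted p = 4.76e-05). Cenpa, the histone variant that marks centromeres, was at 309.8 and 326 CPM in neural tube and 248 and 239 CPM in gut endoderm (adjusted p = 0.0017). Cenpe, by contrast, lay within 66.5 to 76.5 and 101 to 121 CPM across the types (adjusted p = 0.662).

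Spindle genes differed in 8 of 12 cases, led by Tubb4b, a beta-tubulin that cells outside mitosis also use. Its level was 943 and 815 CPM in gut endoderm, 518 and 491 in presomitic mesoderm and 543 and 478 in somite (adjusted p = 1.76e-05). Gut endoderm was highest for Tubb4b in both libraries and the paraxial mesoderm was lowest. In the chromosome group 6 of 7 genes differed: the histone chaperone Anp32e was at 209 and 294 CPM in gut endoderm and 305 and 435 in presomitic mesoderm (adjusted p = 6.80e-05), and Hmgb2, a chromatin protein, at 1025 and 1132 CPM in gut endoderm against 1408 and 1380.2 in presomitic mesoderm (adjusted p = 0.000463). Mki67, which coats mitotic chromosomes, was at 177 and 355 CPM in surface ectoderm, the highest type in both libraries (adjusted p = 0.0337). Top2a, the topoisomerase that untangles sister chromatids, missed the threshold (adjusted p = 0.0826).

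Cytokinesis genes differed in 3 of 4 cases and the genes around the anaphase-promoting complex in 3 of 3. Kif23, a motor of the central spindle, was at 76.4 and 105 CPM in surface ectoderm and at 41.6 and 62.7 CPM in presomitic mesoderm (adjusted p = 4.68e-05). Neural tube had the highest mean of the 8 types for 21 of the 46 members (45.7%), whereas it was highest for 14.0% of all tested genes. The remaining members were highest in endothelium and surface ectoderm (6 each), gut endoderm and lateral plate mesoderm (4 each), somite (3), caudal epiblast (1) and presomitic mesoderm (1). Of all tested genes 17.9%, 14.8%, 18.7%, 7.86%, 9.32%, 6.70% and 10.7% were highest in these types, in the same order. Endothelium was lowest for 11 members, presomitic mesoderm and gut endoderm for 10 each. The shares of all genes lowest in each type were not counted, so these counts have no background.

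Neural tube was then set against caudal epiblast, the progenitor region it arises from, and 7 members were higher and 1 lower. Over all genes 4.23% were higher and 4.78% lower (edgeR adjusted p under 0.05). The median log2 difference was 0.18 over the members and -0.02 over all genes. Nek2 rose from 35.8 and 38.3 CPM in caudal epiblast to 61.7 and 65.2 CPM in neural tube, a log2 difference of 0.78 ± 0.09 (SE, adjusted p = 0.000178). Aurka, the kinase of spindle poles, rose from 73.8 and 90.8 to 91.6 and 124 CPM (0.39 ± 0.09, adjusted p = 0.0174). For both kinases the neural tube libraries lay above the caudal epiblast libraries without overlap.

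Nusap1, which bundles spindle microtubules, rose by 0.53 ± 0.13 on the log2 scale (adjusted p = 0.019). The others that rose were Cdca8 of the passenger complex (0.33 ± 0.09, 0.0493), the spindle protein Tacc3 (0.28 ± 0.07, 0.0299), Ccnb1 (0.23 ± 0.06, 0.0423) and the CDK subunit Cks2 (0.20 ± 0.05, 0.0398). Its paralogue Cks1b, which also helps to degrade a CDK inhibitor, fell from 435 and 451 to 357 and 384 CPM (-0.25 ± 0.07, 0.0482). The log2 differences that missed the threshold were 0.24 for Plk1 (adjusted p = 0.0561), 0.24 for Mki67, 0.16 for Top2a, 0.17 for Cenpa, 0.15 for Hmgb2 and 0.09 for Cdk1. Most of these calls lie near the threshold: 1 member was higher and 0 lower without the library block or with types assigned on counts thinned to 2000 UMIs, whereas DESeq2 called 11 higher and 1 lower.

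Other genes of the cycle moved in neural tube too. Of 48 S phase genes 6 were higher and 0 lower (0 lower also at an unadjusted edgeR p under 0.05 and in DESeq2), led by Prim1 (0.49), Cdt1 (0.43) and Usp1 (0.43). Of 58 other G2 and mitosis genes 5 were higher and 0 lower, with 2 lower at an unadjusted edgeR p under 0.05 and 1 in DESeq2. Cdc25b, the phosphatase that triggers mitotic entry, was at 13.7 and 7.71 CPM in caudal epiblast and 33.3 and 26.5 CPM in neural tube (1.49 ± 0.26, adjusted p = 0.00294), followed by Pimreg (1.08) and the kinesin Kif18a (0.54). Among 16 brakes the retinoblastoma gene Rb1 (1.10 ± 0.25) and Pkmyt1 (0.58 ± 0.13), a kinase that inhibits CDK1, were higher, and the CDK inhibitor Cdkn1a was lower (-3.88 ± 0.19).

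On the mesodermal branch, presomitic mesoderm differed from caudal epiblast in 6 members. Hmgb2 alone was higher (0.18 ± 0.05, adjusted p = 0.0209), against 5.75% of all genes, and 5 were lower, against 7.31% of all genes (edgeR). Tubb4b fell from 763 and 693 to 518 and 491 CPM (-0.53 ± 0.08, adjusted p = 0.00111). Kif23 fell by 0.35 ± 0.09 and Ect2, the exchange factor that starts the cleavage furrow, fell by 0.34 ± 0.10 on the log2 scale (adjusted p = 0.0242 and 0.0434). Cdca3, a trigger of mitotic entry, fell by 0.26 ± 0.08 and Cks2 fell by 0.18 ± 0.05 (adjusted p = 0.0377 and 0.0488). The median log2 difference was -0.03 over the members, and without the library block 0 members passed in either direction.

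The log2 differences for the other cell cycle genes always reported were 0.07 for Cdk1, -0.12 for Ccnb1, -0.21 for Plk1, -0.03 for Top2a, 0.08 for Mki67 and 0.12 for Cenpa, and all 6 missed the threshold. Of 48 S phase genes 1 was higher and 5 were lower, with E2f8, a repressor of E2F targets, at 0.71, and Wdr76, the repair enzyme Ung and the helicase subunit Mcm3 at -0.67, -0.55 and -0.29. Other G2 and mitosis genes had 1 higher and 1 lower of 58, the kinase Pbk at 0.46 and the kinetochore gene Knl1 at -0.60. Among the brakes the antiproliferative gene Btg2 was at 9.55 and 15.1 CPM in caudal epiblast and 29.7 and 123 CPM in presomitic mesoderm, where the libraries were unequal (2.45 ± 0.37). Gadd45g, a stress-response gene, was higher (2.15 ± 0.29), and Cdkn1a was lower (-1.95 ± 0.15).

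From presomitic mesoderm to somite a single member changed. Cdca3 rose from 119 and 103 to 157 and 137 CPM (0.44 ± 0.08, adjusted p = 0.00322), beside 4.49% of all genes higher and 4.11% lower by edgeR. No member was lower, and 0 were lower at an unadjusted p under 0.05 or in DESeq2, which called 2 higher. Without the library block 0 members passed. The always-reported genes lay between -0.09 and 0.17 on the log2 scale. Btg2 fell by 3.44 ± 0.44 and Cdkn1a by 1.37 ± 0.19 over the same step. Of 48 S phase genes 3 were higher, Wdr76 (0.79), Prim1 (0.45) and Cdt1 (0.39), and Uhrf1 was lower (-0.32). Of 58 other G2 and mitosis genes Pimreg (0.58) and Spc24 (0.45) were higher and Pttg1 was lower (-0.64).

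Notochord was below the 8 larger types in most members. Against the unweighted mean of those 8 types, to which the ranges of the next paragraphs also refer, 36 of 46 members were lower and 0 higher (edgeR; 0 higher also at an unadjusted p under 0.05 and in DESeq2), against 11.4% of all genes lower and 10.9% higher. The median log2 difference was -0.64 over the members and -0.08 over all 13937 genes tested. DESeq2's size factors moved the median of all genes to 0.04 and that of the members to -0.58, so the members lay 0.557 and 0.617 below all genes in the respective fits. Of all the genes called, 48.8% were higher by edgeR and 63.5% by DESeq2. Plain CPM ratios had medians of -0.46 and -0.44 on the log2 scale in the libraries, smaller than the fitted value, and 46 members were below 0 in replicate 1 and 41 in replicate 2. In plain CPM 29 members were lower in notochord than in each of the 8 other types in both libraries, which held for 8.38% of 13900 genes.

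The values rest on few cells, with a median of 70 and 30 UMIs per member in notochord and at least 12 and 5. Among the CDK1 module 5 of 6 were lower. Ccnb1 was at 107 and 95.2 CPM in notochord and at 167 to 229.6 and 156 to 227 CPM in the 8 larger types (-1.07 ± 0.08, adjusted p = 4.81e-07). Cdk1 was at 156 and 190.4 CPM, against 206 to 341 and 204 to 294 CPM (-0.65 ± 0.11, 0.000489). Neither gene's notochord value overlapped the 8 larger types of its library. Cdc25c alone missed the threshold in this module.

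All 6 mitotic kinases were lower, with a median of -0.81. Ttk, the kinase that starts the spindle checkpoint, was at 13.6 and 17.9 CPM in notochord against 18.7 to 40.3 and 25.2 to 48.7 CPM in the 8 larger types (-1.06 ± 0.26, adjusted p = 0.00944). Aurka was at 49.9 and 29.8 CPM against 64.3 to 91.6 and 73.5 to 124 CPM (-1.01 ± 0.17, 0.000704), and the libraries taken alone gave unequal values of -0.70 and -1.71. Plk1 was at 125 and 113 CPM (-0.48 ± 0.09, 0.00104). Of the passenger partners both Birc5 and Cdca8 were lower.

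Kinetochore genes were lower in 4 of 6 cases, with Ndc80 and Hjurp the exceptions. Cenpa was at 146 and 211 CPM against 237 to 309.8 and 239 to 326 CPM (-0.91 ± 0.10, adjusted p = 1.75e-05). Spindle genes were lower in 7 of 12 cases, and Kif2c, which depolymerises microtubules at the centromere, had the lowest value of all members (22.7 and 29.8 CPM against 37.6 to 49.7 and 51.2 to 61.5 CPM; -1.15 ± 0.16, 0.000149). Nusap1 and Psrc1, at -0.01 and 0.00, had the values nearest to 0. The 10 members that missed the threshold, Kif11, Kif23, Dlgap5, Ect2, Hjurp, Cdc25c, Ndc80, Ckap2, Nusap1 and Psrc1, ranged from -0.63 to 0.00. For Psrc1 the libraries alone gave -0.73 and 0.87, on opposite sides of 0.

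All 7 chromosome genes were lower. Hmgb2 was at 818 and 824 CPM in notochord against 1025 to 1408 and 1132 to 1380.2 CPM (-0.78 ± 0.05, adjusted p = 2.31e-08). Mki67 was at 109 and 187 CPM (-0.67 ± 0.12, 0.00083) and Top2a at 212 and 330.3 CPM (-0.45 ± 0.08, 0.000806), each below the 8 larger types of its library. Types counted in 1 library reached lower values for some members. Primitive blood in replicate 2 was below notochord for Cdk1 (146 CPM), Top2a (271 CPM), Plk1 (106 CPM), Cenpa (145 CPM) and Hmgb2 (695 CPM). It was above notochord for Ccnb1 (188 CPM) and Mki67 (404 CPM). Haemoglobin took 26.6% of the blood UMIs, which lowers the CPM of all other genes there. Without haemoglobin the members summed to 0.916% of UMIs in blood and 0.632% in notochord of replicate 2. The order of single members without haemoglobin was not tested. Their CPM in blood therefore do not show lower levels relative to its other transcripts. Extraembryonic endoderm in replicate 1 was below notochord for Top2a (134 CPM), Plk1 (72.8 CPM) and Hmgb2 (719 CPM). It was above notochord for Cdk1 (201 CPM), Ccnb1 (147 CPM), Mki67 (120 CPM) and Cenpa (267 CPM). Cytokinesis genes were lower in 2 of 4 cases, among them Anln, the scaffold of the contractile ring (21.6 and 41.7 CPM against 38.7 to 59.9 and 51.1 to 72.7 CPM; -1.08 ± 0.21, 0.00149). The genes around the anaphase-promoting complex were lower in 3 of 3 cases.

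**Figure D2:**
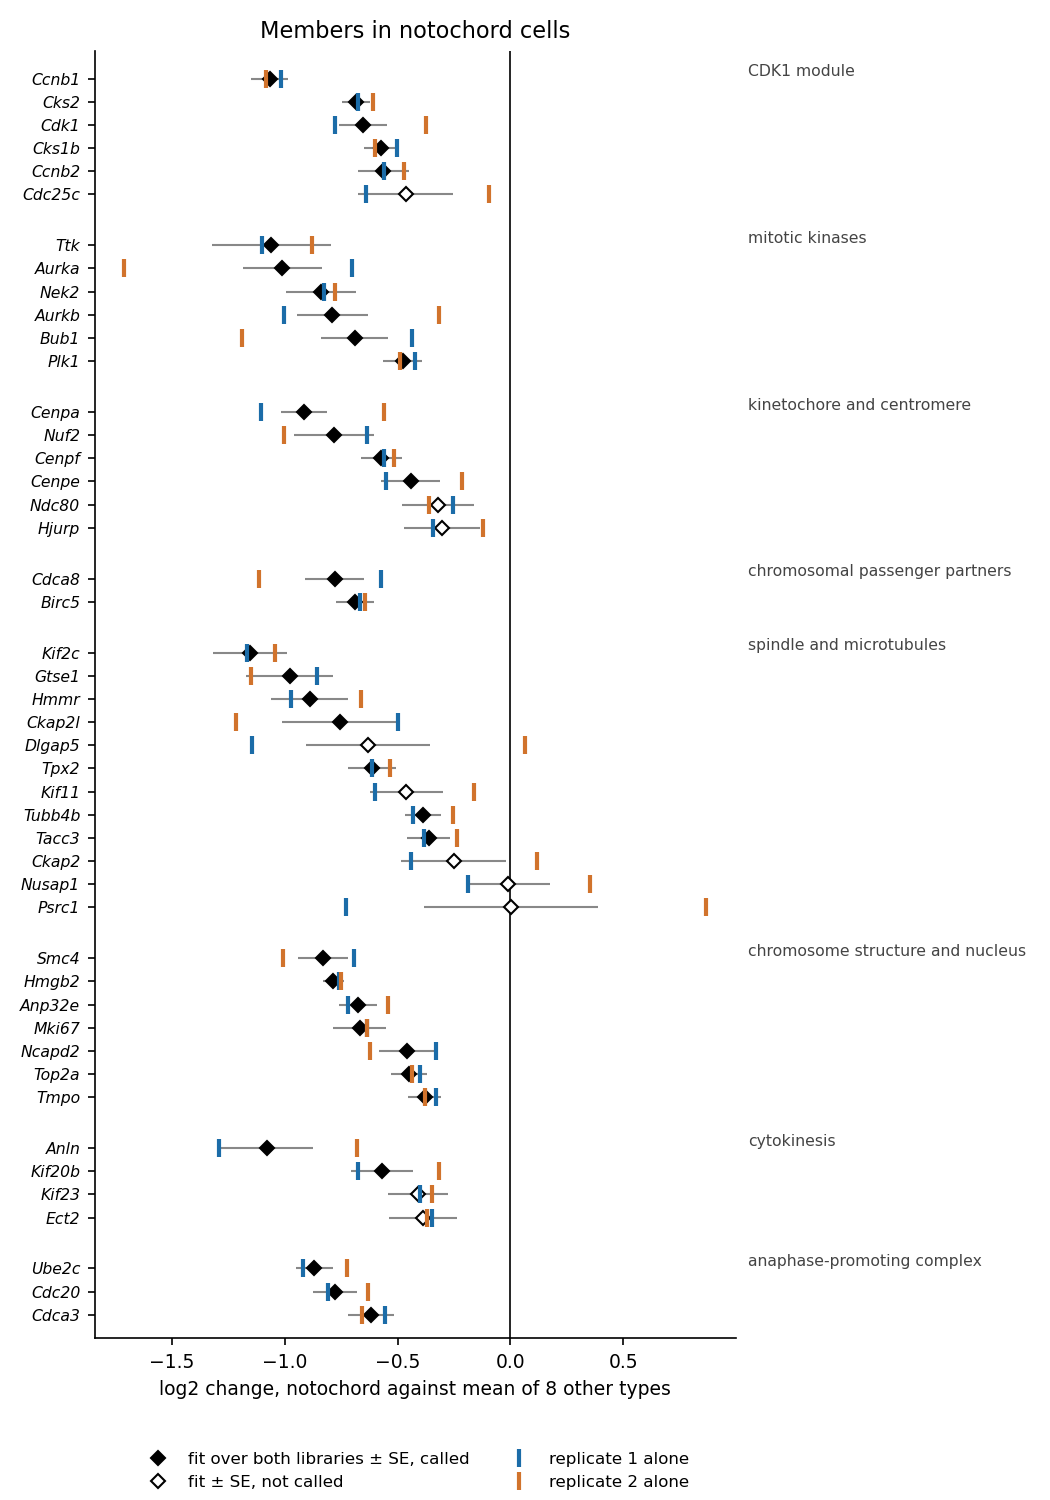
Log2 difference between notochord and the mean of the 8 other types (horizontal axis) for each member, grouped by role; diamonds give the fitted value with its SE, filled where called, and ticks each library fitted alone. The 36 filled diamonds all lie below 0, and Nusap1 and Psrc1 lie nearest to 0.

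Other lists of the cycle held lower genes as well. S phase genes were lower in 28 of 48 cases (median -0.47) and higher in 0 (edgeR; 0 at an unadjusted p under 0.05 and 0 in DESeq2), with Ubr7 at -1.25, the ribonucleotide reductase subunit Rrm2 at -1.13 and the origin-licensing factor Cdc6 at -0.92. Other G2 and mitosis genes were lower in 32 of 58 cases (median -0.56; 16 in DESeq2) and higher in 0 (0 at an unadjusted p under 0.05 and 0 in DESeq2), with Iqgap3 at -1.49, the kinetochore gene Ska3 at -1.27 and Lbr, a receptor of the nuclear envelope, at -1.27. Among 16 brakes 3 were higher and 2 lower. Cdkn1c, the CDK inhibitor p57, was at 511 and 1074 CPM in notochord and at 32.1 to 391 and 69.2 to 251 CPM in the 8 larger types (2.56 ± 0.26, adjusted p = 7.11e-06). Cdkn1a, the CDK inhibitor p21, was at 123 and 125 CPM against 4.37 to 72.7 and 4.14 to 71.0 CPM (2.50 ± 0.15, 3.43e-08), and the antiproliferative gene Btg1 at 213 and 232 CPM (2.03 ± 0.14, 1.70e-07). The 2 brakes that were lower were Fbxo5 (-1.15), an inhibitor of the anaphase-promoting complex, and Pkmyt1 (-0.63).

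The 8 notochord markers were used to select the notochord cells, so their high level there does not test the label. They summed to 2398 and 1729 CPM in notochord and to at most 188 and 244 CPM in the 8 larger types, with Pifo at 0 in replicate 2. The 8 gut endoderm markers, of which Foxa2 is also a notochord gene, summed to 413 and 232 CPM in notochord and to 1189 and 763 CPM in gut endoderm. The surface ectoderm markers summed to 239.5 and 95.2 CPM, with 3 and 5 of 8 at 0, and the extraembryonic endoderm markers to 60.2 and 0 CPM. Caudal epiblast markers summed to 200 and 226 CPM in notochord, against 1783 and 1616 CPM in caudal epiblast. Presomitic mesoderm markers summed to 233 and 179 CPM, against 2808 and 2837 CPM in presomitic mesoderm. The remaining marker lists summed to at most 104 and 92.2 CPM in notochord. Scrublet marked 7 and 2 of the notochord cells, and without marked barcodes the summed share relative to the 8 larger types was 0.712 instead of 0.726. The part of other cells' RNA in the notochord values was not tested.

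The members were also counted in single cells. Each gated cell was thinned to 5000 UMIs and its member UMIs were summed, which left out 4 and 2 shallower notochord cells. Member counts in notochord had a median of 21 in both libraries, a 10th percentile of 6 and 7 and a 90th percentile of 54 and 60.6. In caudal epiblast the median was 37 and 39, with 10th percentiles of 24 and 25.2 and 90th percentiles of 55 and 61. The upper end in notochord thus reached the level of caudal epiblast, and the lower end did not. The variance was 13.8 and 19.0 times the mean in notochord, 7.51 and 10.7 times in gut endoderm and 2.94 to 4.23 and 3.90 to 6.31 times in the other 7 types, where counting error alone gives 1.

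Cells under 20 member UMIs, a limit chosen after the distributions were seen, made up 47.4% of notochord cells in replicate 1 (27 of 57, 95% exact binomial interval 34.0% to 61.0%) and 48.3% in replicate 2 (14 of 29, 29.4% to 67.5%). They made up 14.2% (11.5% to 17.1%) and 16.8% (12.2% to 22.3%) of gut endoderm cells. In the other 7 types they made up 1.20% to 3.87% and 0.441% to 5.36%. The intervals cover counting error only, since cells of 1 library are not replicates. The unthinned median depth was 14804 and 10983 UMIs in notochord and 21598.5 and 13022 in gut endoderm.

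The upper end was defined as the 80th percentile over the cells of the 8 larger types in a library. It lay at 49 and 54 member UMIs, and 13.4% and 11.2% of these cells lay within 3 UMIs of it. Neural tube had 31.2% (26.3% to 36.5%) and 34.4% (28.2% to 40.9%) of its cells at or above it. Notochord had 15.8% (7.48% to 27.9%) and 20.7% (7.99% to 39.7%). These intervals include the 20.8% and 21.5% found over the cells of the 8 larger types. Extraembryonic endoderm had 3.98% in replicate 1 and primitive blood 1.42% in replicate 2, and their 90th percentiles were 41 and 46 member UMIs. These cells were not spread to the low end, as their 10th percentiles were 20 in both types. The draw of UMIs from blood cells included haemoglobin, which took 26.6% of their UMIs and so lowers their member counts. Without haemoglobin the summed member share of blood was 0.916% in replicate 2, against 0.816% to 0.965% in the 8 larger types. Member counts per blood cell without haemoglobin were not tested.

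**Figure D3:**
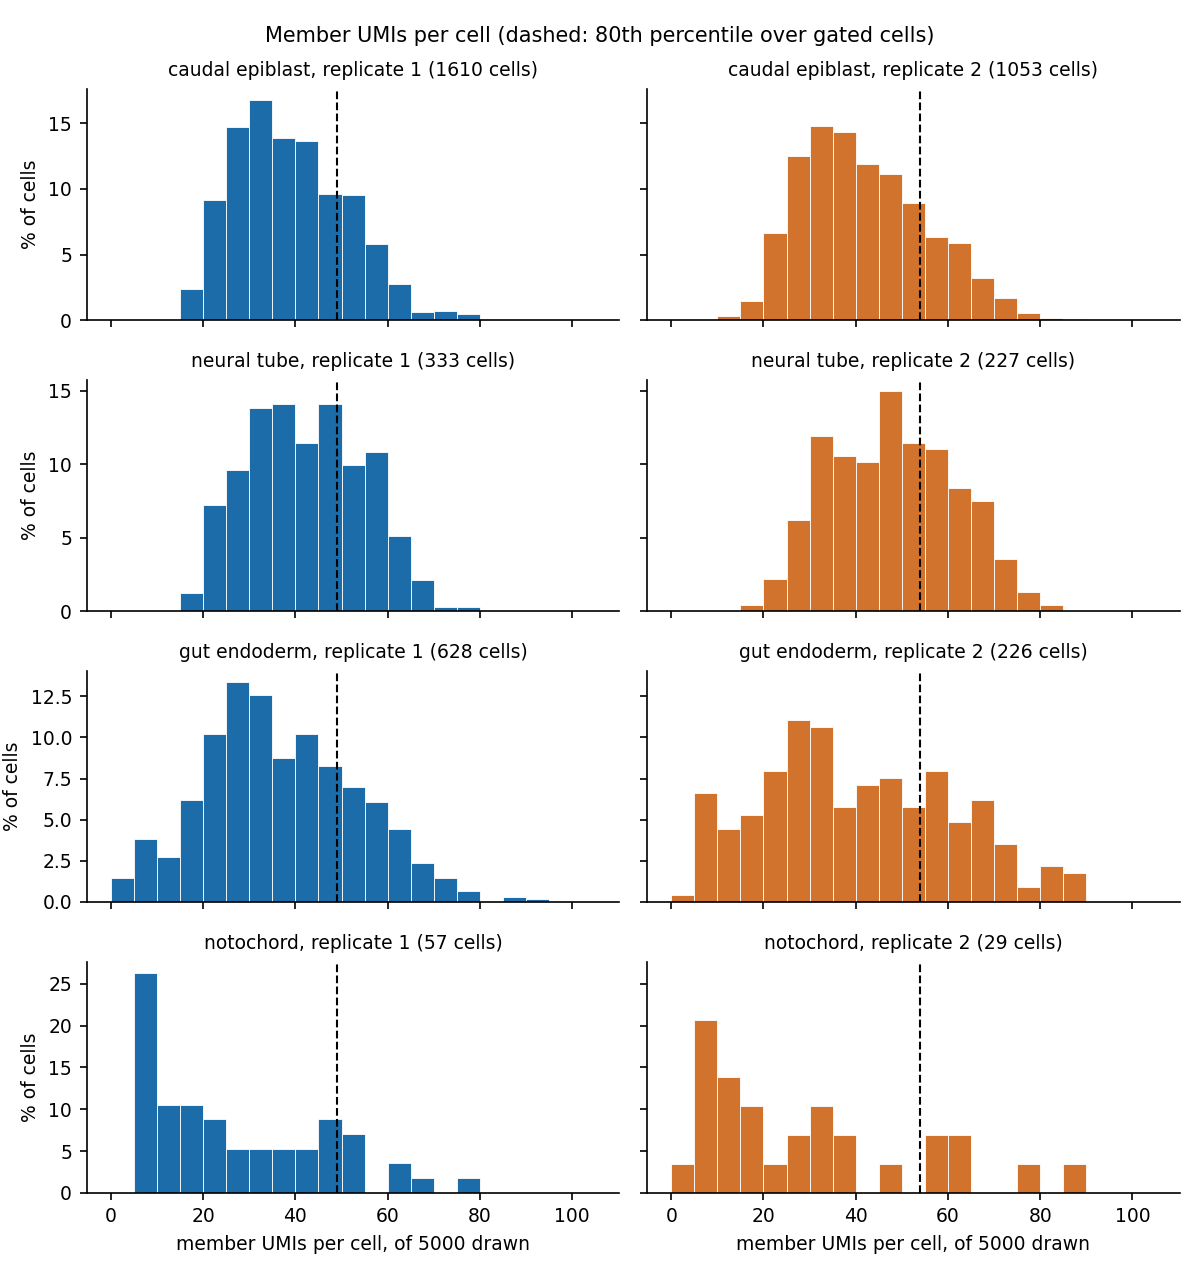
Member UMIs per cell after drawing 5000 UMIs from each cell (horizontal axis) against percent of cells (vertical axis) for caudal epiblast, neural tube, gut endoderm and notochord, with 1 column per library and the 80th percentile of all gated cells dashed. Notochord cells reach from under 10 to over 60 member UMIs, with 47.4% and 48.3% under 20, whereas caudal epiblast and neural tube have few cells there.

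Members differed in how far they moved with the rest. For each member, cells were ranked within type and library by the other 45 members and the gene's CPM in the top 20% of cells was divided by that in the bottom 20%. The ratio was 2 or more in both libraries for 26 members and under 1.5 in both for 7, and the order of the members correlated between libraries with a Spearman rho of 0.96 across 46 genes, which are not independent replicates. Nusap1 (6.28 and 8.19) and Ube2c (6.33 and 7.24), the conjugating enzyme of the anaphase-promoting complex, had the highest ratios. Aurka (4.77 and 6.24), Plk1 (3.78 and 5.91), Cenpe (3.96 and 4.48) and Cenpf (3.64 and 4.63) were also above 3 in both. Ccnb1 (3.16 and 3.77), Cdk1 (2.64 and 2.92), Mki67 (2.57 and 3.24) and Top2a (2.44 and 2.88) were intermediate.

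At the other end Anp32e (1.01 and 1.02) and the nuclear lamina protein Tmpo (1.05 and 1.09) had nearly equal CPM at both ends of the ranking. Hmgb2 (1.10 and 1.11), Cks1b (1.15 and 1.19), the condensin subunit Ncapd2 (1.17 and 1.20), Ccnb2 (1.27 and 1.28) and the checkpoint kinase Bub1 (1.46 and 1.38) also stayed under 1.5. Ccnb1 and Ccnb2, both B-type cyclins, were thus far apart, and so were Cenpa (1.65 and 1.79) and the other centromere protein Cenpe. By role the median ratio was highest for spindle genes in replicate 1 and mitotic kinases in replicate 2 (2.86 and 3.28) and lowest for chromosome genes (1.17 and 1.20).

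The same ranking separated other phases of the cycle. From the bottom 20% to the top 20% of cells the summed S phase genes went from 7062 to 4888 CPM in replicate 1 and from 8010 to 5390 CPM in replicate 2, declining at each step in both libraries. Other G2 and mitosis genes went from 3085 to 4761 and from 3189 to 5352 CPM, and the brakes from 534 to 488 and from 554 to 578 CPM. Unthinned depth moved with the ranking, from a median of 17299.5 to 20852 UMIs and from 12716 to 16070 UMIs, and its part was not tested. Members with a CHR element in the window had a median ratio of 2.66 (29 members) and those without it 2.12 (12 members), and their median notochord differences were -0.62 and -0.69.

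**Figure D4:**
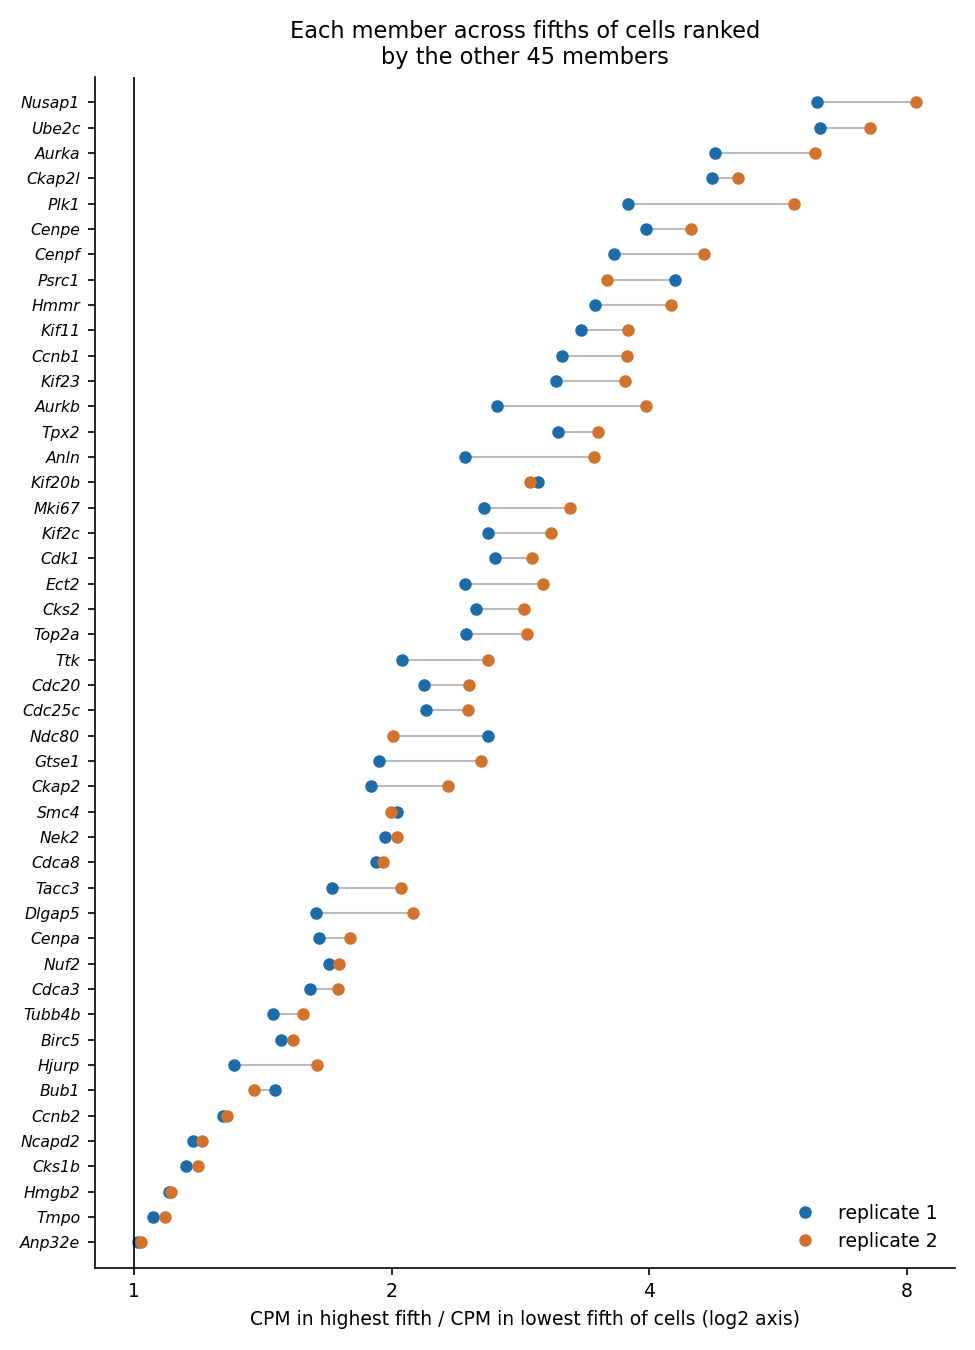
Ratio of CPM in the top 20% to that in the bottom 20% of cells ranked by the other 45 members (horizontal axis, log2 scale), with 1 point per library for each member. Nusap1 and Ube2c lie above 6 in both libraries, and Anp32e, Tmpo and Hmgb2 lie near 1.

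The lower bound on mitochondrial UMIs sets which barcodes are counted. Under 0.3% there were 11242 and 5184 further barcodes, with a median of 5598.5 and 4830 UMIs, and in 6 types both classes could be compared within type and library. The p-values of this comparison measure how far the class difference varies over types and libraries. Of 46 members 26 were higher and 13 lower in the low-mitochondrial barcodes, against 27.1% and 38.1% of all 13514 genes (edgeR). The median log2 difference was 0.17 over the members and -0.09 over all genes. Mki67 went from 153 to 34.4 CPM in replicate 1 and from 267 to 63.4 CPM in replicate 2 (-2.07 ± 0.06, adjusted p = 1.28e-17). Anln (-1.98 ± 0.08), the kinesin Kif20b (-1.38 ± 0.06), Cenpe (-0.89 ± 0.05), Cenpf (-0.64 ± 0.05) and Top2a (-0.55 ± 0.04) were lower too. Each of the 13 members called lower was also lower in CPM averaged over the types in both libraries.

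Ube2c (0.52 ± 0.04), Cks2 (0.52 ± 0.04), Cks1b (0.50 ± 0.03), Aurka (0.49 ± 0.05) and Hmgb2 (0.47 ± 0.03) rose most. Cdk1 went from 243 to 279 CPM in replicate 1 and from 229 to 271 CPM in replicate 2 (0.42 ± 0.04, adjusted p = 2.45e-09). Ccnb1 (0.40 ± 0.05), Plk1 (0.39 ± 0.04) and Cenpa (0.23 ± 0.04) were also higher. In plain CPM averaged over the types, 18 of the 26 members called higher were higher in both libraries, 6 were split and 2, Ttk and Kif2c, were lower in both. Ncapd2, Cdc25c, Tmpo, Ndc80, Ckap2, Bub1 and Ckap2l missed the threshold. The other mitotic lists divided as well, with 29 higher and 20 lower of 58 other G2 and mitosis genes and 25 higher and 11 lower of 48 S phase genes. The first list was led by Pttg1 (0.44), Oip5 (0.40) and Ccna2 (0.38) among the higher genes and by Iqgap3 (-1.93), Aspm (-1.83) and Lbr (-1.23) among the lower. The second was led by Prim1 (0.42), Rfc4 (0.41) and Gins1 (0.41) among the higher and by Dtl (-1.35), Casp8ap2 (-0.64) and Atad2 (-0.57) among the lower.

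Length ran along with the direction. The log2 difference correlated with the length of the longest coding transcript in the GENCODE mouse annotation. The rho was -0.70 across the 46 members and -0.55 across 12712 genes, as a description across genes of shared libraries. The 14 members over 4000 bases had a median of -0.44 and the other 32 a median of 0.28, against -0.47 and 0.09 for all genes. The libraries themselves differed along the same axis among kept barcodes. In all 8 types 25 members were higher in replicate 2 than in replicate 1, and 3 were lower in all 8. The same counts over all genes were not made, so these do not set the members apart from other genes. The median ratio of replicate 2 to replicate 1 was 1.20 over the members. That ratio had a median of 1.28 for members over 4000 bases and 1.12 for the others. The part of length in the differences between cell types was not tested.

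**Figure D5:**
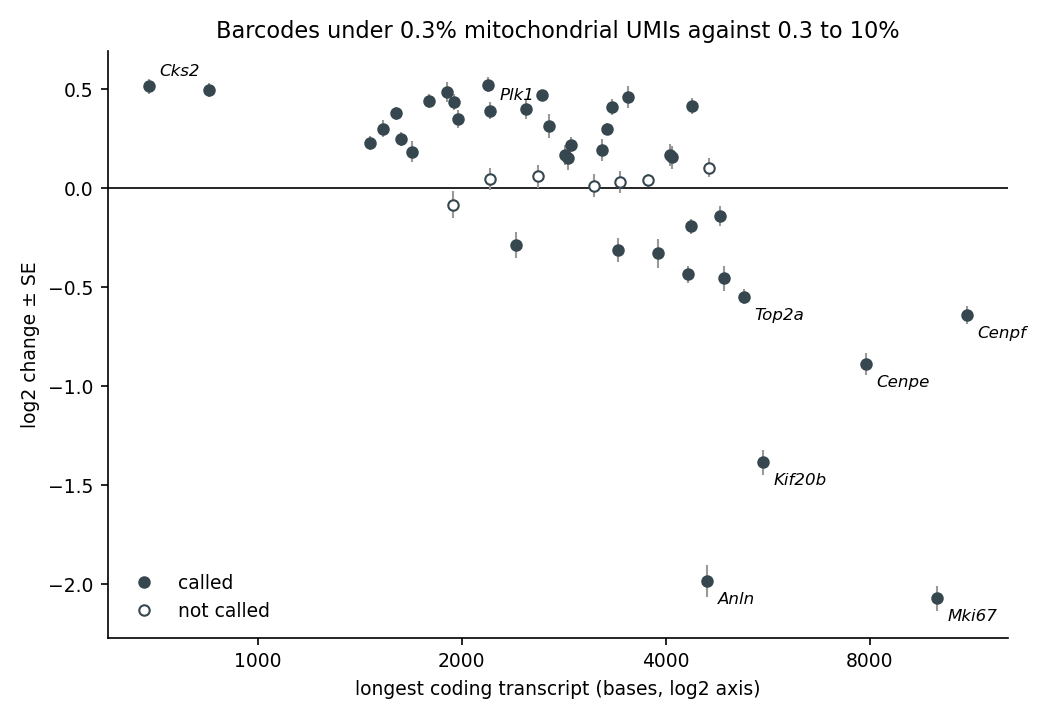
Log2 difference with its SE between barcodes under 0.3% and barcodes with 0.3% to 10% mitochondrial UMIs (vertical axis) against transcript length in bases (horizontal axis, log2 scale) for each member, filled where called. Of the members over 4000 bases, Mki67, Anln and Cenpf are among those below 0 and Cdk1, Dlgap5, Ect2 and Ncapd2 lie above it, as do many shorter ones such as Cks2 and Plk1.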

How the data were processed

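The authors deposited UMI counts per gene and barcode, made with Cell Ranger 6.1.1 and build mm10, per the submitters' processing notes; the annotation version was not given in the sources used here. Barcodes with at least 2000 UMIs and 0.3% to 10% mitochondrial UMIs were kept. A barcode was given a type when at least 3 of that type's 8 markers had a UMI and exceeded every other list by 2; primitive blood needed 5% of UMIs in its markers and extraembryonic endoderm 1%. Deposited counts were summed per type and library and fitted with edgeR 4.0.16 in R 4.3.3 (TMM factors, filterByExpr, quasi-likelihood test, library as a block, Benjamini-Hochberg adjustment over all genes, threshold 0.05). The block was used because all cell types of a library come from the same sample. A minimum of 50 cells per type and library was planned; 25 was used for the notochord comparison after the cell counts were seen. DESeq2 1.42.0 was an alternative, as were other size factors, no filter, no block, leaving out a library, at least 4000 UMIs, at least 4 markers, no lower mitochondrial bound, gating on counts thinned to 2000 UMIs and removal of barcodes marked by Scrublet (Scanpy 1.11.5). For per-cell values 5000 UMIs were drawn from each cell.

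The members and gene lists were chosen with earlier results of these data known. In each comparison the text names the 5 largest called log2 changes in each direction plus Cdk1, Ccnb1, Top2a, Mki67, Plk1, Cenpa and Hmgb2, and of each other list it may name up to 3 of the largest called changes in each direction; all members are accounted for, and further members were named after their values were seen. The test was tested on simulated data: for presomitic mesoderm against caudal epiblast, with 13251 genes, it recovered 67.2% of 1.5-fold, 97.0% of 2-fold and 100% of 4-fold changes with 13 false calls (6.88% of calls). The simulated counts had no library effect and no other differences between types, and only genes above a set level were changed. No change under 1.5-fold was simulated, so recovery of smaller differences is not known. The 95% binomial intervals (Clopper-Pearson) cover counting error only.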

Additional observations from a re-analysis of the deposited data

How the results depend on the processing

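The count of members lower in notochord and the counts in the low-mitochondrial comparison stayed within 1.5 times under all alternatives that could be fitted, and the median over the members kept its sign in each comparison. The other counts depended on the setting. The 35 members that varied among types became 22 with the gate on thinned counts, which leaves fewer types, and 12 without the replicate block. The 7 members higher in neural tube became 11 by DESeq2, 3 without the filter on low counts, 1 without the replicate block and 1 with the thinned gate and at least 25 cells, an alternative added after the data were seen. The 1 member lower there was 0 with RLE size factors, without Scrublet-marked barcodes, with at least 4 markers, with that thinned gate and without the replicate block. For presomitic mesoderm the 1 member higher was 0 with the thinned gate, without the filter and without the replicate block and 2 without the lower mitochondrial bound, and the 5 lower were 3 without Scrublet-marked barcodes, 2 with the thinned gate, 3 without the filter and 0 without the replicate block. The 1 member higher in somite was 2 by DESeq2 and 0 without the replicate block.

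The notochord share relative to the 8 other types (0.726) was 0.741 without the lower mitochondrial bound, 0.568 with the thinned gate (36 and 13 cells), 0.706 with at least 4 markers and 0.712 without Scrublet-marked barcodes, and 0.718 to 0.733 with a library left out. Over all genes the calls fell from 10271 to 6843 (varying), 1253 to 465 (neural tube), 1815 to 636 (presomitic mesoderm) and 1195 to 476 (somite) without the replicate block, and neural tube had 498 with the thinned gate. With a library left out no residual spread is left for the comparisons between types, so these gave values with no test; the test among types could not be run. The thinned gate left too few notochord cells for a fit. The cause of the other changes was not tested. Among values of single members, list medians and type shares, 650 kept their call or moved by less than the replicate spread, 45 lost the call, 3 gained it and 41 moved. In notochord depth limits single members, the least counted of which had 12 and 5 UMIs.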

Other observations

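Notochord and gut endoderm cells were also split by genes chosen after their distributions were seen. In notochord, cells with a UMI of the cilia genes Foxj1, Pifo or Fam183b had a median of 17 member UMIs (39 cells) and cells without one 30.5 (18 cells) in replicate 1, and 17 (3 cells) and 23 (26 cells) in replicate 2. In gut endoderm, cells with a UMI of Trh had a median of 31.5 (170 cells) and cells without one 36 (458 cells) in replicate 1, and 31 (11 cells) and 39 (215 cells) in replicate 2. Split by Cdx2 instead, the medians were 33 with a UMI (363 cells) and 36 without (265 cells) in replicate 1, and 40 (159 cells) and 31 (67 cells) in replicate 2, so the direction differed between the libraries. The cilia genes and Trh are among the markers used to assign the cells, depth was lower in the cilia-gene cells of replicate 1 before thinning (14060 against 16326.5 UMIs), and no test was made.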
